A study of Mus musculus with 8 samples.

Results

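Prostaglandin synthesis, transport and breakdown were followed through 10 genes in the endometrium, the uterine mucosa, of mice killed 8 h after mating. They are the cyclooxygenase genes Ptgs1 and Ptgs2, the prostaglandin E synthase genes Ptges, Ptges2 and Ptges3, the prostacyclin synthase gene Ptgis, the prostaglandin D synthase genes Ptgds and Hpgds, the uptake transporter gene Slco2a1 and the dehydrogenase gene Hpgd. The set of members was chosen with earlier results of these data known. Its genes were matched by symbol in the authors' deposited table, and all 10 were found among the table's 24647 distinct symbols. They lay on 12 transcript clusters, the probe groups of the array, because Ptges3 had 3 of them.

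The study compared 2 groups of CBAF1 females (CBA x C57Bl/6 F1), all naturally cycling and mated with Balb/c males. In the first, the males were Intact, so that coitus brought seminal fluid exposure. In the second, the males were SVX/VAS, an abbreviation the labels do not expand, and coitus brought no seminal fluid. Each group had 4 Affymetrix Mouse Gene 2.0 ST arrays, each of RNA pooled from 4 females, so 16 females stood behind a group and the values of single animals were averaged before measurement. Endometrium was scraped from the opened uterus, the muscle layer was discarded, and mating was recorded by video in both groups, with a copulatory plug checked after Intact mating only.

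Prostaglandins are made from arachidonic acid that phospholipases release from membranes. A cyclooxygenase turns it into the intermediate prostaglandin H, and terminal synthases turn that into prostaglandin E, D or F or prostacyclin. Slco2a1 protein carries prostaglandins into cells, where the Hpgd enzyme oxidises and inactivates them. In the uterus these lipids are known for their part in inflammation, in vascular permeability at implantation and in parturition, with Ptgs2 as the inducible and Ptgs1 as the more constant cyclooxygenase.

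All values below are log2 expression per pool, so that a difference of 1 is a doubling. The deposited values had a median between 5.35 and 5.41 on the 8 arrays, and the first principal component, with 22.4% of the variance, ran from -37.6 to -0.6 in Intact pools and from 20.8 to 27.7 in SVX/VAS pools. Intact pool 4 correlated slightly more with SVX/VAS pools than with its own group (mean r over all clusters of 0.980 and 0.976). As a floor for weak signals, the 95th percentile of 1128 olfactory receptor clusters was taken, genes that endometrium is not known to use, and it lay at 5.29. Epithelial and stromal markers were above this floor for 8 of 8 genes each, and 6 of 7 smooth muscle markers were too, although the muscle layer had been removed. The mean log2 level of the smooth muscle list was uneven, with 6.88, 7.99, 7.48 and 8.01 in Intact pools 1 to 4. In SVX/VAS pools it was 7.13 to 7.73. Bulk RNA does not tell fewer cells of a type from less RNA per cell.

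The 3 members that differed most between the groups were Ptgs2, Slco2a1 and Hpgds, and the sequence around their starts is shown here because the motif matches described further on lie in it. Each runs 5′ to 3′ from 250 bases before to 50 bases after the annotated start, from RefSeq on GRCm38.p6, with motif matches in capitals. Ptgs2 is at chr1:150099781-150100080 on the plus strand, Slco2a1 at chr9:103008237-103008536 on the plus strand and Hpgds at chr6:65144681-65144980 on the minus strand.
Ptgs2: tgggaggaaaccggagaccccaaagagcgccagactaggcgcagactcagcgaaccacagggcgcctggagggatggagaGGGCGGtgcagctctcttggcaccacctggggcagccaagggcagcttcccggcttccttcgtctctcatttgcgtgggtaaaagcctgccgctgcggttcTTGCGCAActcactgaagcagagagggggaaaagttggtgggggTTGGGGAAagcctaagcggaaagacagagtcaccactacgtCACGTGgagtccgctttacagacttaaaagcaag
Slco2a1: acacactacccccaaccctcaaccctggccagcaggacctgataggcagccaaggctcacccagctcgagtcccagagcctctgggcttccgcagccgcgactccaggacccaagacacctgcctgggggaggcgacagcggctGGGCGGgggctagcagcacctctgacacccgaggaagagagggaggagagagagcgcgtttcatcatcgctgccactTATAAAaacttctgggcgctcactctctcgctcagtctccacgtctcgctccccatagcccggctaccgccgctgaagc
Hpgds: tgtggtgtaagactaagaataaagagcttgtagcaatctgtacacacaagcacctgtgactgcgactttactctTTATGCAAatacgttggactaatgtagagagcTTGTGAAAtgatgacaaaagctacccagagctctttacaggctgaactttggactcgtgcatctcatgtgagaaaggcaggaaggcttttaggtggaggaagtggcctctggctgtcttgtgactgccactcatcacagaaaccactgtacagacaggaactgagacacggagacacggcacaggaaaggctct

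The comparison asked which steps of the pathway differ in endometrium exposed to seminal fluid. Ptgs2 and Slco2a1 were higher and Hpgds was lower after Intact mating, each by at least 1.5-fold, while Ptgs1 and the E synthase and prostacyclin synthase genes had differences of less than 1.2-fold. By limma's moderated test 0 of the 10 members passed a Benjamini-Hochberg adjusted p of 0.05 over all 41345 clusters, where 0.0822% of clusters did, and the members' adjusted p-values began at 0.23. At an unadjusted limma p under 0.05 there were 3 members, against 12.1% of the clusters with 1 gene symbol. By the criteria the submitters stated, a fold of 1.5 or more in either direction together with an unadjusted p below 0.05, the same 3 of 10 qualified, 2 higher and 1 lower, where 1.28% of clusters with 1 symbol did (0.725% higher and 0.555% lower). In 0 of the 10 did the 4 Intact pools lie wholly above or below the 4 SVX/VAS pools, which was so for 9.72% of clusters with 1 symbol. The median log2 fold change over the 10 was 0.10, beside 0.0005 over all clusters.

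**Figure D1:**
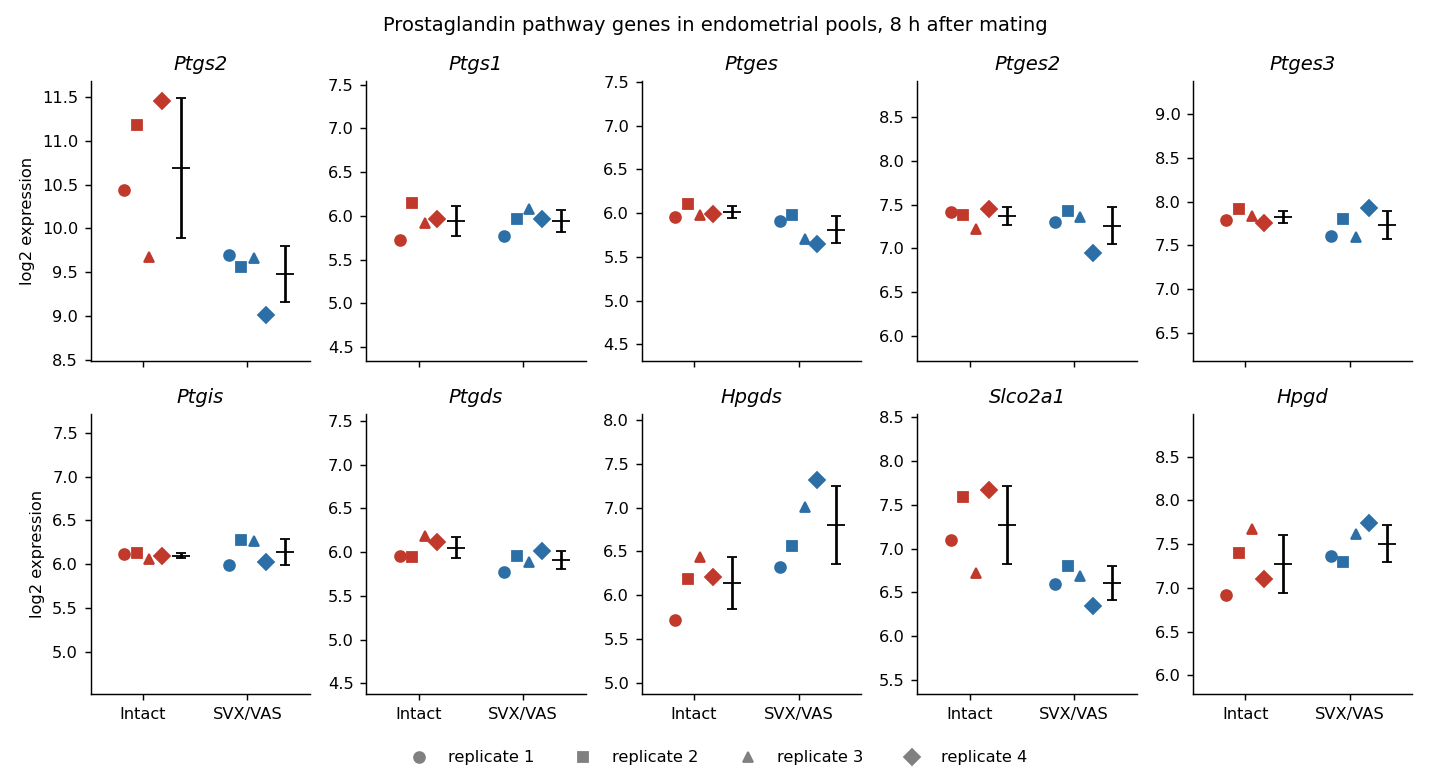
Log2 expression of the 10 genes in each pool, Intact left and SVX/VAS right, with marker shapes for replicate numbers and the mean and SD beside each group; every panel spans the same number of log2 units. Intact pool 3 lies among the SVX/VAS pools for Ptgs2 (9.67) and Slco2a1 (6.72), while the other Intact pools lie above all SVX/VAS pools.

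Ptgs2, the inducible cyclooxygenase on chromosome 1, had log2 values of 10.44, 11.18, 9.67 and 11.45 in Intact pools 1 to 4, against 9.70, 9.56, 9.66 and 9.01 in SVX/VAS pools 1 to 4. Intact pools 1, 2 and 4 were above every SVX/VAS pool, Intact pool 3 was within their range, and SVX/VAS pool 4 was the lowest of all. Means were 10.68 ± 0.80 in Intact and 9.48 ± 0.32 in SVX/VAS pools (SD, n = 4 each), a log2 fold change of 1.20 (SE 0.36, 95% interval 0.39 to 2.01), or 2.30-fold. The adjusted p by limma was 0.23, and an exact two-sided permutation test over the 8 pools gave p = 0.057, where 0.029 is the smallest that 4 against 4 can give. Intact pools spread more widely than SVX/VAS pools for this gene. When Intact pool 3 was left out, the log2 fold change was 1.54 (limma adjusted p = 0.091).

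Ptgs1, the cyclooxygenase that most tissues keep at a steady level, had 5.73, 6.15, 5.92 and 5.97 in Intact pools, against 5.77, 5.96, 6.08 and 5.96 in SVX/VAS pools. The groups overlapped throughout, with equal means of 5.94 (SD 0.17 in Intact and 0.13 in SVX/VAS). The 95% interval of its log2 difference ran from -0.26 to 0.26, so a change beyond 1.20-fold in either direction lay outside it. The lower bound for Ptgs2, 1.31-fold, lay above that interval. The difference between both genes' changes was not tested.

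Ptges encodes the inducible microsomal prostaglandin E synthase, which is often coupled to Ptgs2. Its values were 5.96, 6.11, 5.98 and 5.99 in Intact pools, against 5.91, 5.98, 5.71 and 5.65 in SVX/VAS pools. SVX/VAS pools 1, 3 and 4 were below every Intact pool, and SVX/VAS pool 2 was within the Intact range. The log2 fold change was 0.20 (SE 0.10, 95% interval -0.03 to 0.43), or 1.15-fold, with limma adjusted p = 0.48. The upper bound of the interval was 1.35-fold, below the submitters' 1.5-fold.

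Ptges2, a membrane-associated E synthase that is not inducible in most tissues, averaged 7.37 ± 0.10 in Intact and 7.26 ± 0.21 in SVX/VAS pools (SD, n = 4 each). SVX/VAS pool 4 was its lowest at 6.95, and the other 7 pools lay between 7.22 and 7.45. Ptges3, the cytosolic E synthase that also serves as the HSP90 co-chaperone p23, had log2 fold changes of 0.09, 0.23 and -0.05 on its 3 clusters. The cluster that stood for the gene, on chromosome 10, averaged 7.82 ± 0.06 in Intact and 7.73 ± 0.16 in SVX/VAS pools. The brightest cluster averaged 9.58 ± 0.20 and 9.62 ± 0.07 in Intact and SVX/VAS pools, and the third was below the floor with a mean of 5.19 over all pools. None of the 3 had an interval beyond 1.51-fold upward or under 0.81 of the SVX/VAS level.

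Ptgis, the synthase of prostacyclin, a vasodilator made by vessel walls and stroma, had 6.11, 6.13, 6.06 and 6.09 in Intact pools, against 5.99, 6.27, 6.26 and 6.02 in SVX/VAS pools. All Intact pools lay inside the SVX/VAS range, and the log2 fold change was -0.04 (SE 0.10, 95% interval -0.27 to 0.18).

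Both D synthases make prostaglandin D from prostaglandin H and are unrelated in sequence. Hpgds, the glutathione-dependent enzyme of mast cells, macrophages and other hematopoietic cells, on chromosome 6, was the 1 member that met the submitters' criteria downward. Its values were 5.72, 6.18, 6.44 and 6.21 in Intact pools, against 6.32, 6.56, 7.01 and 7.32 in SVX/VAS pools. SVX/VAS pools 2, 3 and 4 were above every Intact pool, and of the Intact pools only pool 3 was above SVX/VAS pool 1. Means were 6.14 ± 0.30 in Intact and 6.80 ± 0.45 in SVX/VAS pools (SD, n = 4 each), a log2 fold change of -0.67 (SE 0.23, 95% interval -1.19 to -0.14), or 1.59-fold lower. The limma adjusted p was 0.30 and the exact permutation p 0.057, and its unadjusted p of 0.049 under the submitters' criteria lay next to their threshold.

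Cell type markers were measured beside Hpgds. Of 8 mast cell markers, 7 were below the floor, and Cpa3, Cma1 and Mcpt4, proteases of mast cell granules, had means over all pools of 3.99, 3.30 and 2.64. The mean log2 level of the mast cell list was 3.81 to 4.00 in Intact and 3.58 to 3.79 in SVX/VAS pools. It was thus higher in Intact pools without overlap, with positive log2 fold changes for 8 of 8 genes, whereas Hpgds was lower. Macrophage markers, 7 of 8 above the floor, overlapped between the groups (6.28 to 6.89 in Intact and 6.35 to 6.88 in SVX/VAS pools), as did stromal (7.85 to 8.65 and 8.14 to 8.80) and endothelial markers (5.53 to 6.41 and 5.93 to 6.30). Log2 fold changes were negative, as for Hpgds, for 7 of 8 stromal genes (median -0.24) and 6 of 7 endothelial genes (median -0.14). For macrophage genes 4 of 8 were negative (median -0.02). Intact pool 1, the lowest for Hpgds, was also the lowest of all 8 for the macrophage, stromal and endothelial lists. None of the genes in these 4 lists met the submitters' criteria, and the part of cell makeup in the Hpgds difference was not tested.

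Ptgds, the lipocalin-type D synthase of brain, meninges and male reproductive tract, had 5.96, 5.94, 6.18 and 6.12 in Intact pools, against 5.77, 5.96, 5.89 and 6.01 in SVX/VAS pools. The groups overlapped, and the log2 fold change of 0.14 (SE 0.10, 95% interval -0.08 to 0.37) had limma adjusted p = 0.62.

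Slco2a1, the prostaglandin uptake transporter on chromosome 9, met the submitters' criteria upward, as Ptgs2 did. It had 7.10, 7.59, 6.72 and 7.67 in Intact pools, against 6.60, 6.80, 6.69 and 6.34 in SVX/VAS pools. As for Ptgs2, Intact pools 1, 2 and 4 were above all SVX/VAS pools and Intact pool 3 was within their range. Means were 7.27 ± 0.45 in Intact and 6.61 ± 0.20 in SVX/VAS pools (SD, n = 4 each), with a log2 fold change of 0.66 (SE 0.21, 95% interval 0.18 to 1.14), or 1.58-fold. The limma adjusted p was 0.26, the exact permutation p was 0.057, and without Intact pool 3 the log2 fold change was 0.85 (limma adjusted p = 0.13).

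Hpgd, which inactivates the prostaglandins that the transporter brings in, had 6.92, 7.40, 7.67 and 7.10 in Intact pools, against 7.36, 7.29, 7.62 and 7.74 in SVX/VAS pools, and the groups overlapped. Its log2 fold change was -0.23 (SE 0.18, 95% interval -0.63 to 0.17), with limma adjusted p = 0.66, and the upper bound of its interval was 1.13-fold.

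The 3 members past the submitters' criteria depended on single pools. Without Intact pool 1, 2 or 4, or without SVX/VAS pool 3 or 4, 0 members met the criteria. Hpgds alone met them without SVX/VAS pool 1, Slco2a1 alone without SVX/VAS pool 2, and all 3 did without Intact pool 3. Directions held in each case: the log2 fold change stayed between 0.95 and 1.54 for Ptgs2, between 0.53 and 0.85 for Slco2a1 and between -0.82 and -0.49 for Hpgds.

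The level of Ptgs2 over the 8 pools was compared with that of every other cluster with 1 gene symbol, as a description that includes the difference between the groups. Slco2a1 had the highest Pearson correlation of all 27036, r = 0.986 (Spearman rho 0.786), and r = 0.933 over 6 pools when Intact pools 2 and 4, the farthest from the median of Ptgs2, were left out. After each group's mean was taken off, r was 0.968, at rank 20. Intact pools had the same order for both genes, with pool 3 lowest, then 1, 2 and 4, and SVX/VAS pool 4 was the lowest of all 8 for both. SVX/VAS pools 1, 2 and 3 ran in opposite order, with 9.70, 9.56 and 9.66 for Ptgs2 and 6.60, 6.80 and 6.69 for Slco2a1.

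The next 5 genes by this measure were Nfkbiz (r = 0.986), Tnip3 (0.985), Nadk (0.983), Ltbp2 (0.980) and Usp10 (0.979), each over 8 pools. Nfkbiz encodes a nuclear IkB protein that acts with NF-kB, and Tnip3 an inhibitor of NF-kB signalling. Tnip3 had 8.88, 9.58, 8.42 and 9.65 in Intact pools, against 8.04, 8.04, 8.05 and 7.68 in SVX/VAS pools, with no overlap. It was 2.27-fold higher after Intact mating (limma adjusted p = 0.14). Ltbp2, a matrix protein related to fibrillin, was 1.70-fold higher, and Nadk, which makes NADP, was 1.48-fold higher (limma adjusted p of 0.17 and 0.20). Nfkbiz and the deubiquitinase gene Usp10 were each 1.26-fold higher (limma adjusted p of 0.35 and 0.31). Hpgds had r = -0.687 with Ptgs2 (Spearman rho -0.881), r = -0.912 over the 6 pools without Intact pools 2 and 4, and -0.331 after group means were taken off.

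**Figure D2:**
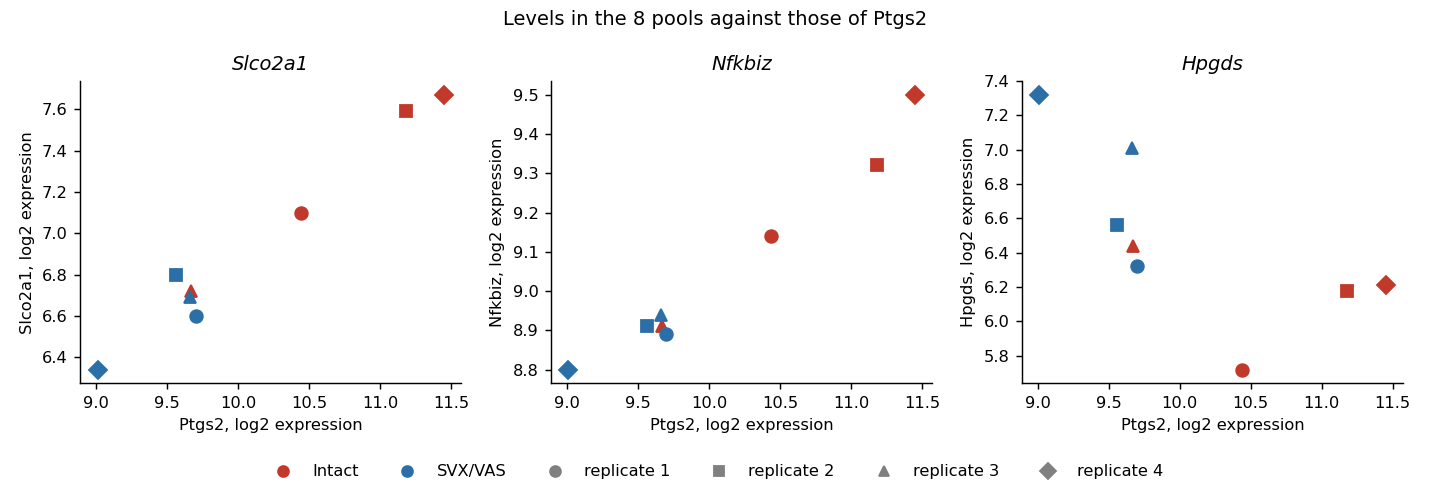
Log2 expression of Slco2a1, Nfkbiz and Hpgds (vertical) against that of Ptgs2 (horizontal) in each of the 8 pools, Intact in red and SVX/VAS in blue. Slco2a1 and Nfkbiz climb with Ptgs2 (r = 0.986 each), with Intact pool 3 among the SVX/VAS pools. Hpgds runs downward (r = -0.687, and -0.912 without Intact pools 2 and 4), but only weakly after group means were taken off (r = -0.331).

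Neighbouring steps of the pathway were described with 7 gene lists, of which 96 of 97 genes were measured. The lists were chosen with earlier results of these data known. Beside their counts, 0.725% of clusters with 1 symbol met the submitters' criteria upward and 0.555% downward. Among 23 genes that release arachidonic acid from membrane lipids, 1 met the submitters' criteria upward and 0 downward, with a median log2 fold change of 0.06. It was Pla2g2e, a secreted phospholipase A2, with 9.86, 9.98, 9.54 and 10.24 in Intact pools, against 9.11, 9.29, 9.27 and 9.13 in SVX/VAS pools. Every Intact pool was above every SVX/VAS pool. The log2 fold change was 0.71 (SE 0.15), or 1.63-fold, with limma adjusted p = 0.12 and an exact permutation p of 0.029. Pla2g4a, the cytosolic phospholipase A2 that feeds cyclooxygenases in most cells, had a log2 fold change of -0.08 (95% interval -0.30 to 0.13) and was picked for its role after its values were seen.

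Of 9 other terminal enzymes, 0 met the criteria upward and 1 downward, with a median of -0.08. Akr1c18 encodes the hydroxysteroid dehydrogenase that inactivates progesterone and that also reduces prostaglandins to the F form. It had 6.26, 6.91, 5.96 and 6.64 in Intact pools, against 7.86, 7.71, 7.52 and 7.67 in SVX/VAS pools. The groups lay apart, with a log2 fold change of -1.25 (SE 0.19), or 2.37-fold lower, and limma adjusted p = 0.060. Of 6 measured genes for other transport and breakdown, 0 met the criteria, 5 of 6 had negative values and the median was -0.20. Abcc4, an efflux pump for prostaglandins, was 1.24-fold lower and Ptgr2, a prostaglandin reductase, 1.23-fold lower after Intact mating (limma adjusted p of 0.26 and 0.29).

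Among 9 prostanoid receptor genes, 0 met the criteria upward and 1 downward, with a median log2 fold change of -0.04. Ptger4, the prostaglandin E receptor EP4, which raises cyclic AMP, had 7.87, 7.51, 7.56 and 7.84 in Intact pools, against 8.17, 8.46, 8.33 and 8.58 in SVX/VAS pools. The groups did not overlap. It was 1.61-fold lower (log2 fold change -0.69, SE 0.13, limma adjusted p = 0.099). Ptger1 was counted by the dimmer of its clusters (mean 6.55, log2 fold change -0.12). Its brighter cluster (mean 7.53) was 1.14-fold lower with no overlap between the groups (limma adjusted p = 0.41), and is named after its values were seen.

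In the branches that share arachidonic acid as substrate, 0 of 14 lipoxygenase and leukotriene genes and 0 of 15 epoxygenase and omega-hydroxylase genes met the criteria, with medians of -0.02 each. Ltc4s, which makes leukotriene C, was 1.43-fold higher, and Alox12e, an epidermal lipoxygenase, 1.44-fold lower after Intact mating (limma adjusted p of 0.12 and 0.18). Dpep2 of the leukotriene list was counted by a dim cluster (mean 5.39, log2 fold change -0.07). Its brighter cluster (mean 7.08) was 1.49-fold higher with no overlap between the groups (limma adjusted p = 0.24), and is named after its values were seen. Cyp4f13 and Cyp2j6, both cytochrome P450 genes, were 1.33-fold and 1.29-fold lower (limma adjusted p of 0.22 and 0.24). Without Intact pool 3, Alox12e met the criteria.

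**Figure D3:**
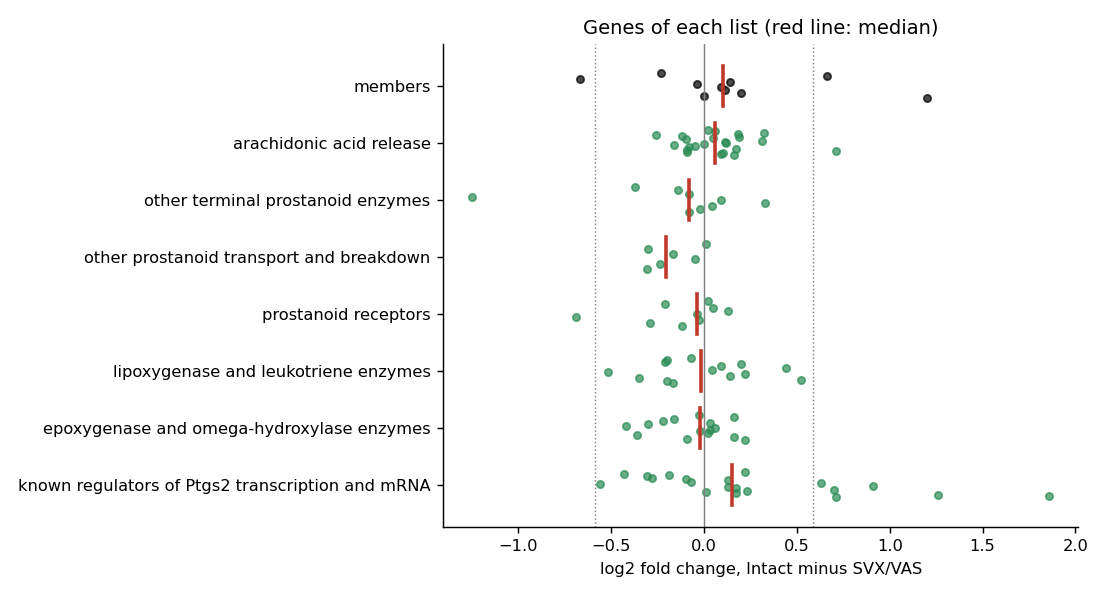
Log2 fold change (Intact minus SVX/VAS, horizontal) of each member and each gene of the 7 lists (rows), with a red line at each median and dotted lines at 1.5-fold in both directions. Points past the right line are Ptgs2, Slco2a1, Pla2g2e and 6 regulators of Ptgs2, and those past the left line are Hpgds, Akr1c18 and Ptger4.

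Of 20 genes known to regulate Ptgs2 transcription or its mRNA, 6 met the criteria upward, 0 downward and 14 neither, and the median log2 fold change was 0.15. Among clusters with 1 symbol, 0.725% met them upward and 0.555% downward. This list, too, was chosen with earlier results of these data known. Il1b, a cytokine that induces Ptgs2 in many cells, rose. It had 6.48, 7.02, 6.46 and 7.32 in Intact pools, against 5.35, 5.15, 4.48 and 4.87 in SVX/VAS pools. All Intact pools were above all SVX/VAS pools, with a fitted log2 fold change of 1.86 (SE 0.24) and limma adjusted p = 0.042. The SVX/VAS mean of 4.96 and 3 of the 4 SVX/VAS pools were below the floor of 5.29, so the fitted size is uncertain. With those pools set at the floor, the mean of Il1b was 2.86-fold higher in Intact pools. This value allows for the floor only and not for the spread between pools. The limma interval, fitted without the floor, had a lower bound of 2.47-fold. The limma call of Il1b was lost when any pool other than Intact pool 3 was left out (limma adjusted p of 0.07 to 0.13).

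Tnf, another inducing cytokine, was 2.40-fold higher and Il1a, an epithelial alarm cytokine, 1.64-fold higher after Intact mating (limma adjusted p of 0.11 and 0.22). Fos, an AP-1 subunit, was 1.88-fold higher, Cebpd, a C/EBP transcription factor, 1.62-fold higher, and Zfp36, whose protein destabilises AU-rich mRNAs, 1.55-fold higher (limma adjusted p of 0.057, 0.057 and 0.17). In the same list 5 genes were lower after Intact mating with no overlap between the groups, as many as were higher with none. Groups did not overlap, in either direction, for 9.72% of clusters with 1 symbol. The 5 lower genes are named after their values were seen. Jun, the partner of Fos in AP-1, had 8.22, 8.36, 7.93 and 8.43 in Intact pools, against 8.86, 8.99, 8.78 and 8.55 in SVX/VAS pools, and was 1.47-fold lower (limma adjusted p = 0.17). Anxa1, an anti-inflammatory protein that glucocorticoids induce, was 1.35-fold lower, and Nr3c1, the glucocorticoid receptor, 1.24-fold lower (limma adjusted p of 0.14 and 0.23). Tia1, an RNA-binding protein, was 1.21-fold lower and Tsc22d3, a glucocorticoid target, 1.14-fold lower (limma adjusted p of 0.31 and 0.43). Il1a alone of the 6 that met the criteria had overlapping groups, with Intact pool 3 (9.04) below SVX/VAS pool 2 (9.18). For Il1b, Fos and Il1a, Intact pool 3 was the lowest of its group (6.46, 7.90 and 9.04), whereas for Tnf, Cebpd and Zfp36 it was Intact pool 1 (6.30, 7.21 and 7.77). Intact pool 3 was inside the SVX/VAS range for Ptgs2, Slco2a1 and Il1a, and outside it for Il1b, Tnf, Fos, Cebpd and Zfp36.

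**Figure D4:**
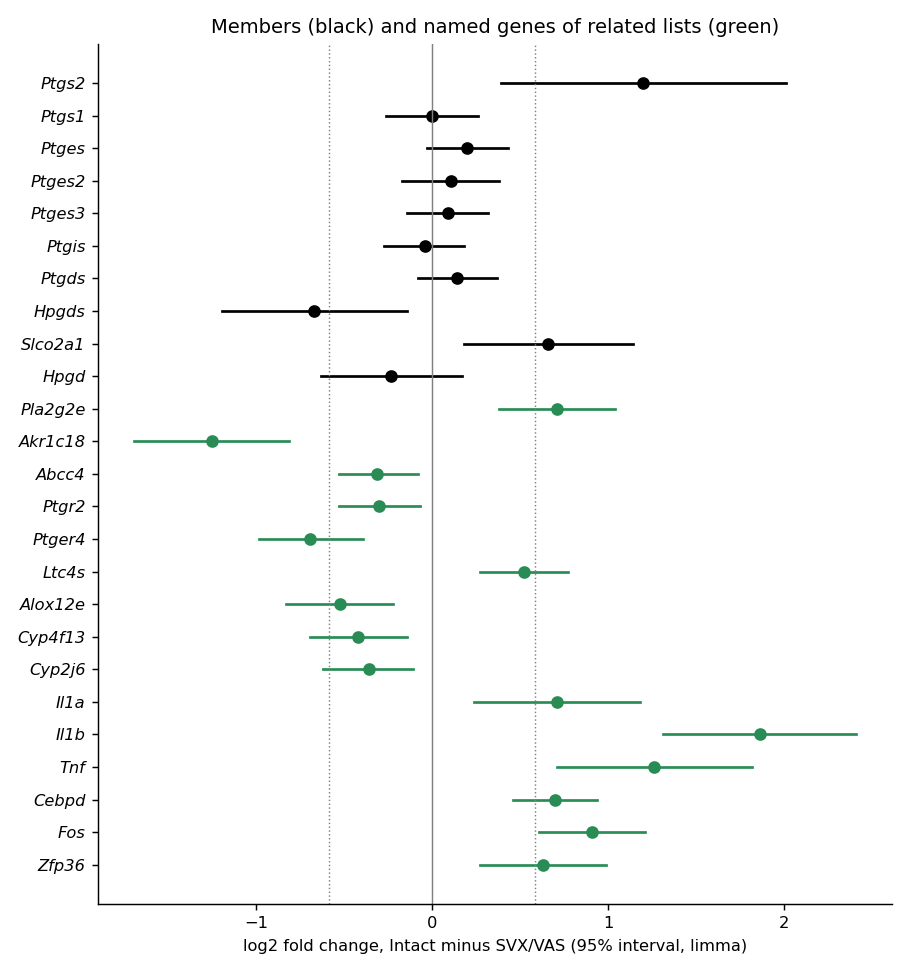
Log2 fold change (Intact minus SVX/VAS) with 95% intervals by limma for the 10 members (black) and for the named genes of the lists (green), with dotted lines at 1.5-fold. Intervals of Ptgs2, Slco2a1 and Hpgds leave out 0, and those of the other 7 members include it.

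The neutrophil marker list was measured beside Ptgs2, since mating brings these cells into the uterus. Its mean log2 level was 5.20, 5.44, 5.07 and 5.29 in Intact pools, against 4.92, 4.93, 4.86 and 5.02 in SVX/VAS pools, and 8 of its 12 genes were below the floor. This mean was higher in all Intact pools than in any SVX/VAS pool, but the separation depended on Il1f9. The log2 fold change of Il1f9 was 1.47, where the list's median was 0.15. Of the 12 genes 11 had positive log2 fold changes, some of them near 0 (Mmp8 2.8e-03 and Camp 0.01). S100a9, a calprotectin gene abundant in neutrophils, had 5.54, 5.45, 4.90 and 6.25 in Intact pools, against 4.78, 4.89, 4.24 and 5.50 in SVX/VAS pools, so 3 Intact pools and 1 SVX/VAS pool were above the floor. Its partner S100a8 was below the floor in every pool, with means of 3.40 in Intact and 2.70 in SVX/VAS pools. Cxcr2, a chemokine receptor of neutrophils, was 1.45-fold higher with overlapping groups (limma adjusted p = 0.30), and Ly6g, a neutrophil surface protein, was 1.29-fold lower with none (limma adjusted p = 0.20). Of the 12, 1 met the criteria, Il1f9, a cytokine that epithelia also make (2.77-fold higher). The granule genes Camp, Mmp8, Ngp and Mpo were below the floor in every pool, with means over all pools of 3.70, 4.33, 4.75 and 5.02. Epithelial markers overlapped between the groups (9.82 to 10.18 in Intact and 9.88 to 10.09 in SVX/VAS pools). Intact pools 2 and 4, the highest of all 8 for the smooth muscle list, were also the highest for Ptgs2. Intact pool 1 was the lowest of all 8 for that list, yet above every SVX/VAS pool for Ptgs2. The part of cell makeup in the Ptgs2 difference was not tested.

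Start regions of 9 of the 10 members were searched on both strands for the TATA box (TATAAA), the CCAAT box (CCAAT), the GC box (GGGCGG), the cyclic AMP element (TGACGTCA), the E-box (CACGTG), the AP-1 motif (TGANTCA), a C/EBP motif (TTNCNNAA) and the NF-kB motif. The region of Ptgs2 held a C/EBP match at -69, the palindrome TTGCGCAA, another at -25, a GC box at -170 and an E-box at 17, counted from the annotated start. The C/EBP motif is loose and was found in 40.7% of 32851 regions of this length, whereas the E-box was found in 7.2%. Slco2a1 shared only the GC box with it (at -106, found in 35.7% of regions) and had a TATA box at -29 (13.6%). Hpgds held C/EBP matches at -176 and -144.

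The NF-kB motif, in 8.5% of regions, was in those of Ptges3 (-87) and Ptgds (-22) and not in the windows of Ptgs2, Slco2a1 or Hpgds. Ptgds also held the AP-1 motif (-35, in 7.8% of regions). The full cyclic AMP element TGACGTCA (1.8%) and the CCAAT box (37.4%) were in none of the 9 windows, and that of Ptgs1 held no match at all. Shorter or partial forms of the cyclic AMP element were not searched, so their absence is not shown. Ptges and Hpgd each had GC box and C/EBP matches, Hpgd also a TATA box at 5, and Ptges2 an E-box at -77 and a C/EBP match at -48. These matches describe letters in a short window, not binding.

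**Figure D5:**
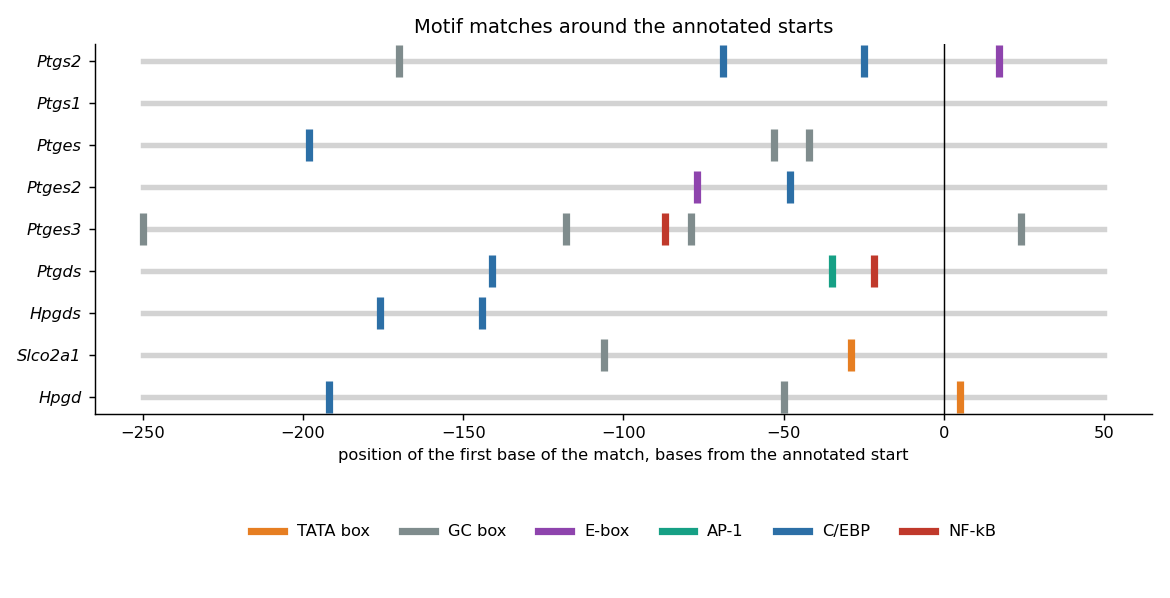
Motif matches in the start regions of 9 members, by the position of the first base of the match relative to the annotated start (horizontal, in bases), coloured by motif. The Ptgs2 row holds 2 C/EBP matches, a GC box and an E-box, and the Slco2a1 row a GC box and a TATA box.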

How the data were processed

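Endometrial RNA of 8 pools was hybridised to Affymetrix Mouse Gene 2.0 ST arrays. The log2 values per array deposited by the authors came from RMA background correction, GC content correction and mean probe summarization in Partek Genomics Suite 6.6, per the series text, and the submitters' processing notes also name Affymetrix Expression Console. For any step between arrays and for the annotation build: not given in the sources used here. Deposited by the authors, the p-value column is the unadjusted p of this comparison, the ratio column deposited by the authors is a linear Intact over SVX/VAS fold, and the score columns deposited by the authors are signed folds, F and sums of squares, per the file headers. The log2 differences of group means matched the deposited ratios to 6e-05, so both tables hold the same values and the same scale.

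Pools were grouped and numbered by their labels. The test was limma 3.58.1 (lmFit and eBayes, two-sided, R 4.3.3) on all 41345 clusters with Benjamini-Hochberg adjustment, called at 0.05, checked on simulated data. The submitters' criteria used the methods' t-test p, equal to the deposited one. Where a gene had several clusters, the lowest ID stood for it. Members, lists, motifs and tests were chosen with earlier results of these data known. Named list genes were those meeting a call rule, or else the 2 with the smallest limma p, plus 5 genes most like Ptgs2 by Pearson r. List symbols were matched through RefSeq synonyms (GRCm38.p6), and Ptgr3 had no match. Chromosomes are RefSeq's. Arrays carry no counts, and their number limits the precision (median SE 0.14). Alternatives were other tests, between-array scaling, filters, a replicate block and leaving out each pool.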

Additional observations from a re-analysis of the deposited data

Results flagged for a closer look

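Among the members and named genes, 64 groups of 4 pools were checked for a pool far from the other 3 of its group, and 1 was found, where chance gives about 1 in 20. Tnip3 had 7.68 in SVX/VAS pool 4, against 8.04 to 8.05 in the other SVX/VAS pools, a gap of 0.958 of the group's range.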

How the results depend on the processing

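No member was called under any alternative run, and Ptgs2, Ptges, Ptges2, Ptgds, Hpgds, Slco2a1 and Hpgd kept their direction in all of them. The adjusted p of Ptgs2 ranged from 0.091 to 0.41. Of all clusters 34 were called by limma, against 10 with the authors' deposited p-values and 10 with the methods' t-test after adjustment, 173 with a trended robust prior, 54 after quantile normalization, 336 after the filter on dim clusters, 234 among clusters with 1 symbol and 2 to 50 when a pool was left out. The criteria were met by 768 clusters, 346 of them with 1 symbol, and by 661 to 970 when a pool was left out, and members meeting them numbered 0 to 3. With the replicate number as a block in limma 0 clusters were called (4620 at an unadjusted p under 0.05) and 568 met the criteria, Hpgds being the 1 member to meet them (unadjusted p of 0.023). Same-numbered pools did not deviate together over all clusters (correlations of 0.068, 0.026, -0.021 and -0.033 for pairs 1 to 4). Such correlations cannot show whether same-numbered pools were linked for some genes only. The SE of Hpgds was 0.14 with the block and 0.23 without it. Signs near 0 turned: Ptgs1 was 0.02 after quantile normalization and -0.07 to 0.07 with a pool left out, Ptgis -0.09 to 2.1e-03, the brightest Ptges3 cluster -0.13 to 0.03, and Ptges3 was -0.05 when that cluster stood for it. Il1b kept its call in 6 of 16 alternatives (adjusted p of 0.0088 to 0.2). Other named genes gained one: Akr1c18 (0.034), Cebpd (0.027) and Fos (0.025) with the trended robust prior, Cebpd (0.048) and Fos (0.039) after quantile normalization, Pla2g2e (0.047), Ltc4s (0.047), Tnf (0.042), Ptger4 (0.037), Akr1c18 (0.022), Cebpd and Fos (0.018 each) after the dim filter, and Pla2g2e (0.05 after rounding), Tnf (0.04), Ptger4 (0.037), Akr1c18 and Cebpd (0.016 each) and Fos (0.014) among clusters with 1 symbol. Median shifts under other scalings were at most 0.0101. Signal near the floor, as for Ptgs1, Ptges and Ptgds, may hide small changes.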
